A study of Mus musculus with 23 samples.

Results

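Basal gene expression was compared between primary mouse embryonic fibroblasts (MEFs) homozygous for the D mutation of the glucocorticoid receptor (GR) and wild-type MEFs, both kept in vehicle. Members of the comparison were the vehicle libraries of GRD/D (replicates 1 and 2) and of GRwt/wt (replicates 1, 2 and 3), 5 of the 23 libraries of the series. The MEFs were of the FVB/NJ strain and were grown from embryos of heterozygous crosses after removal of the head and the organs. GRD/D cells carry an alanine-to-threonine change in both copies of Nr3c1, the gene of GR, which lies in the part of the DNA-binding domain through which receptor molecules contact each other. GRwt/wt cells carry the unmodified gene. Vehicle was the solvent of the ligand and was present for 5 h in both groups, in a medium that contained fetal serum, and the Dex libraries referred to below received 10 nM dexamethasone for the same 5 h. Other libraries of the series came from GRL/L cells, with a change in the ligand-binding domain, and from GRD+L/D+L cells, with both changes. Each culture of a genotype was from a separate mouse, so that a culture, its mouse and its preparation cannot be told apart.

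GR is the steroid receptor that mediates the effects of cortisol and corticosterone. Once activated by hormone it switches genes on from palindromic DNA elements, where a pair of receptor molecules is bound. It also lowers inflammatory gene expression, in part by contacting other transcription factors such as NF-kB and AP-1. The D mutation is the classical tool to weaken dimer formation. Without added ligand most of the receptor is inactive, and the comparison asks whether the mutant cells differ from wild type before stimulation.

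Totals ranged from 17989496 to 22063135 counts over the 5 libraries, and 15748 genes were tested. Levels are in CPM, that is, counts brought to equal library size with TMM factors, and differences as log2 fold change (LFC) of GRD/D over GRwt/wt with the SE. Calls required both an absolute LFC of at least 1 and an adjusted p (Benjamini-Hochberg) no higher than 0.05 in the quasi-likelihood test of edgeR. Both GRD/D libraries were much alike, with a Spearman correlation of 0.991 across genes and a median SD per gene of 0.099 on the log2 scale. Among the 3 GRwt/wt libraries that SD was 0.469, and the pairwise correlations were 0.877, 0.831 and 0.941. The GRD/D libraries were closer to GRwt/wt replicates 2 and 3 (0.969 to 0.978) than these were to each other.

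A pair of GRwt/wt libraries stood apart. In GRwt/wt replicate 1 gene levels departed from their medians along with the GC content of the transcripts (rho 0.688, against at most 0.331 in all other libraries), and its highest correlation with any library was 0.916. GRwt/wt replicate 3 carried RNA of macrophages. The summed level of 20 macrophage markers was 6188 CPM there, 1186 and 347 CPM in the GRD/D libraries, and 50.3 and 22.8 CPM in GRwt/wt replicates 1 and 2. The order was the same for Lyz2, the lysozyme of macrophages, which stood at 3379 CPM in GRwt/wt replicate 3, 754 and 196 CPM in GRD/D, and 24.1 and 7.62 CPM in the other GRwt/wt libraries. None of the 20 markers was at 0 in all 5 libraries, and in a bulk sample more cells of a type and more RNA per cell cannot be told apart. The library most like GRwt/wt replicate 3 was GRD/D Dex replicate 2 (0.988), although Gm8615 and Gnpda1, described below, were at GRwt/wt levels in GRwt/wt replicate 3. The labelled cell type was present in every library, since 12 fibroblast markers, among them the collagens Col1a1, Col1a2 and Col3a1, summed to 34635 to 48768 CPM. Of 10 further marker lists of cell types and RNA composition, smooth muscle and pericyte markers summed to 993 CPM in GRwt/wt replicate 1 and 238 to 423 CPM in the other 4 libraries, and adipocyte markers to 504 CPM in GRwt/wt replicate 3 and 18.6 to 199.7 CPM elsewhere. Skeletal muscle markers summed to 268 CPM in replicate 1 and 19.2 to 49.7 CPM elsewhere, of which 210 CPM in replicate 1 were from Des, a muscle filament gene also counted among the smooth muscle markers, while Myod1 and Myf5 were at 0 in all 5 libraries. Endothelial, epithelial, erythroid and placental markers summed to at most 35.0 CPM in every library. Neural and Schwann cell markers summed to 126 to 242 CPM. Cartilage and bone markers summed to 74.2 to 116 CPM, the highest in GRwt/wt replicate 2, where the cartilage matrix gene Comp gave 35.98 CPM against at most 1.35 CPM in the other 4 libraries. Of the 8 tested, 7 had a negative LFC with all libraries (median -3.23), and Runx2, the other, was called higher without replicate 3 (LFC 1.19, adjusted p = 0.00978, edgeR). The cartilage collagen Col2a1 was at 17.5 and 15.2 CPM in GRwt/wt replicates 1 and 2 and at most 0.591 CPM in the other 3 libraries, and the cartilage proteoglycan Acan at 8.94 and 6.55 CPM and at most 0.317 CPM. Mitochondrial and nuclear RNAs summed to 12105 CPM in replicate 1 and to at least 25815 CPM elsewhere. By Xist and 4 Y-linked genes, GRD/D replicate 1 and GRwt/wt replicate 1 matched female cells and the other 3 matched male cells, so each group held both sexes. The counts of calls and the list medians are therefore given in the order all libraries, without GRwt/wt replicate 1, without replicate 3 and without both, and a call of a single gene with the fit that gave it.

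**Figure D1:**
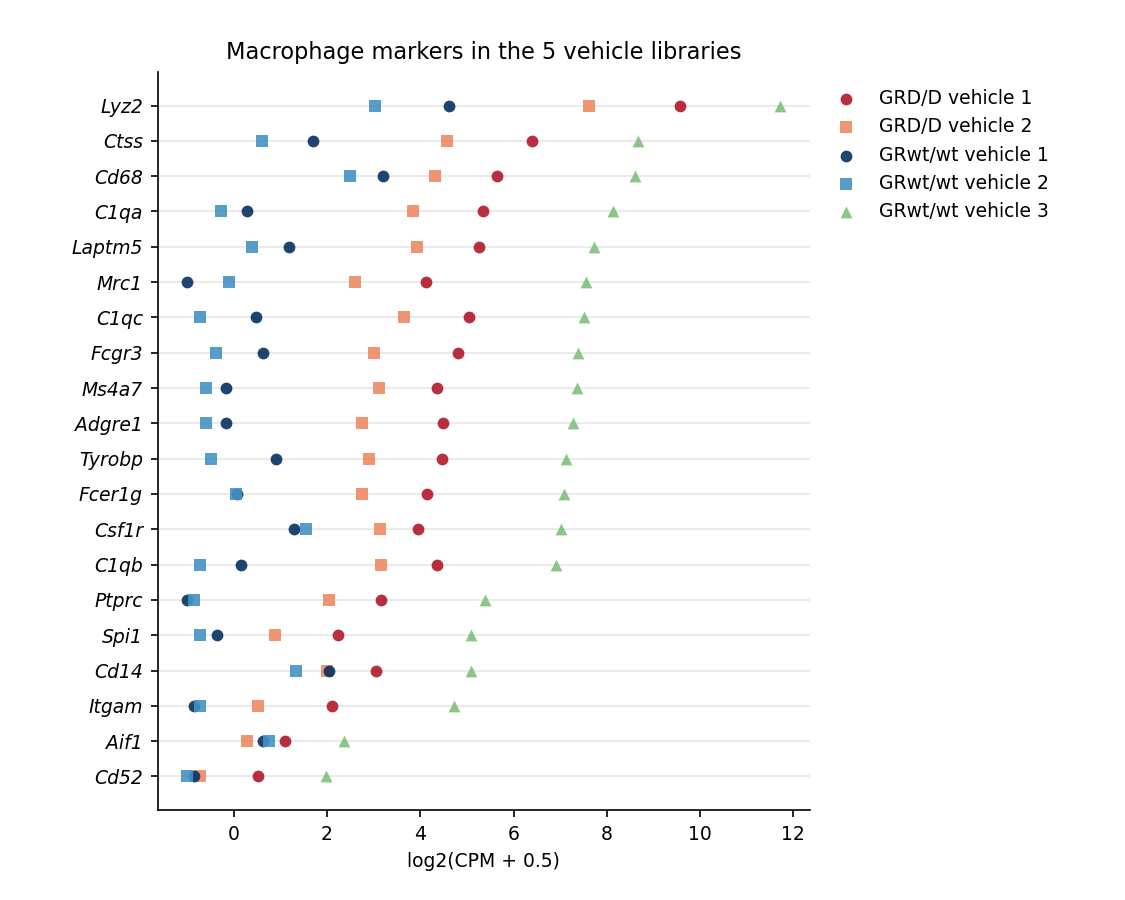
Level of each of 20 macrophage markers in the 5 vehicle libraries, as log2(CPM + 0.5) on the horizontal axis, with 1 point per library. GRwt/wt replicate 3 is to the right for all markers, both GRD/D libraries lie between it and GRwt/wt replicates 1 and 2 for most, and Lyz2 reaches 3379 CPM.

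With all libraries, a single gene of 15748 was called (0.00635%), and it was lower in GRD/D. Without GRwt/wt replicate 1 the count was again 1 (0.00638%). Without GRwt/wt replicate 3, 376 genes were called (2.4%), 284 higher (1.81%) and 92 lower (0.587%) in GRD/D. Without both, when GRwt/wt was represented by 1 library assumed to vary like the other groups, 56 were called (0.346%), 24 higher (0.148%) and 32 lower (0.198%). The count thus moved with 1 control library. It also moved with the tool, from 30 with DESeq2 to 2 with limma voom and sample weights on all libraries, and from 821 to 1 without replicate 3. An unadjusted p below 0.05 was reached by 1946 genes with all libraries.

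Most of the 284 genes called higher without replicate 3 were not higher than replicate 3 itself. In 122 of them GRwt/wt replicate 3 lay above both GRD/D libraries, in 58 between them, and in 104 below both. With all libraries the sign stayed positive for 202 of the 284. They included 12 of the 20 macrophage markers, all 20 of which had a negative LFC with all libraries, with a median of -1.69. Of the 92 genes called lower, all 92 had a negative LFC with all libraries, and in 28 of them GRwt/wt replicate 3 lay below both GRD/D libraries.

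**Figure D2:**
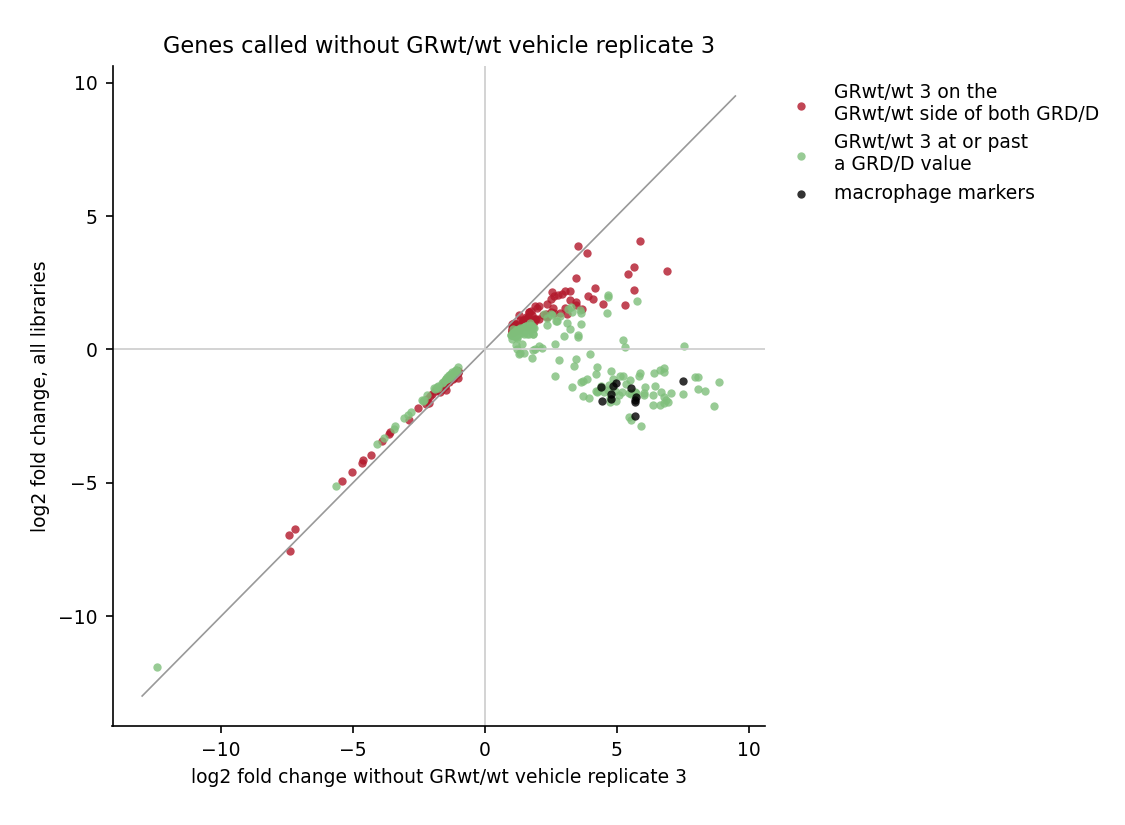
LFC of the 376 genes called without GRwt/wt vehicle replicate 3, on the horizontal axis, against their LFC with all libraries, on the vertical axis, with 1 point per gene and the line of equality. Lower genes lie along the line, whereas a group of genes on the right that includes the macrophage markers (black) falls below 0 once replicate 3 is included.

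The single gene called with all libraries was Gm8615, a transcribed processed pseudogene at chr5:149155108-149156209 (minus strand, GRCm38). It read 0.0985 and 0.0517 CPM in GRD/D against 15.2, 13.7 and 17.8 CPM in GRwt/wt. The groups were far apart, with an LFC of -7.57 ± 0.82 (adjusted p = 0.000579, edgeR) and -7.58, -7.41 and -7.40 in the fits without replicate 1, without replicate 3 and without both. The 3 reads in GRD/D against 923 in GRwt/wt gave a ratio of 207 (95% exact interval 70.7 to 1007, counting error only). Gm8615 overlaps Hmgb1 and Mm2pr on the same strand, and as a pseudogene it shares sequence with a parent gene, so its count is uncertain. It was as different under Dex (LFC -7.17, adjusted p = 6.26e-05, edgeR).

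Gnpda1, which encodes a glucosamine-6-phosphate deaminase, lies on the chromosome of Nr3c1, at chr18:38327535-38339003 (minus strand, GRCm38), with Nr3c1 at chr18:39410545-39519421. Its level was 73.4 and 68.2 CPM in GRD/D and 42.9, 29.4 and 38.0 CPM in GRwt/wt. Every GRD/D value was above every GRwt/wt value, with an LFC of 0.94 ± 0.18 (adjusted p = 0.198, edgeR), 1.02 without replicate 3 (adjusted p = 0.0154) and 1.24 without both (adjusted p = 0.0226). Under Dex the LFC was 1.21 (adjusted p = 0.00327, edgeR). Among the 17 genes named by rule below, Gm8615 and Gnpda1 alone separated 8 libraries carrying the D mutation (GRD/D in vehicle and Dex, GRD+L/D+L in vehicle) from 9 without it (GRwt/wt in vehicle and Dex, GRL/L in vehicle). Gm8615 was at most 0.246 CPM with the mutation and at least 10.1 CPM without it, and Gnpda1 was at least 50.2 CPM with it and at most 42.9 CPM without it. All 17 genes had been chosen for no overlap among the 5 vehicle libraries of GRD/D and GRwt/wt, so there the split was given. Their Dex libraries may share cultures with these, which was not tested. Outside both genotypes, Gm8615 was at 0, 0.137 and 0.177 CPM in GRD+L/D+L vehicle and at 11.2, 10.3 and 10.1 CPM in GRL/L vehicle. Gnpda1 was at 50.2, 66.7 and 62.3 CPM against 32.5, 29.9 and 24.2 CPM in the same order.

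Nr3c1 itself was at 107 and 105 CPM in GRD/D and at 4.08, 73.0 and 88.0 CPM in GRwt/wt. The low value was that of the replicate with the GC-dependent deviation. The LFC was 0.95 ± 0.65 with all libraries (adjusted p = 0.52, edgeR), 0.41 without replicate 1, 1.49 without replicate 3 and 0.52 without both, none of which passed. A point mutation is not visible in gene counts, so these levels do not check the genotype.

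There were 35 genes called both without replicate 3 and without both replicates, 16 higher and 19 lower, and all 35 had the same sign with all libraries. In 19 of them the 5 libraries did not overlap, and 17 of these also reached a mean of 1 CPM in the higher group. Since every library of the smaller fit is also in the larger one, the overlap is no independent evidence. Of the 17 only Gm8615 was called with all libraries or without replicate 1. Over all genes tested, GRD/D lay above GRwt/wt with no overlap for 11.1% and below it for 12.1%.

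**Figure D3:**
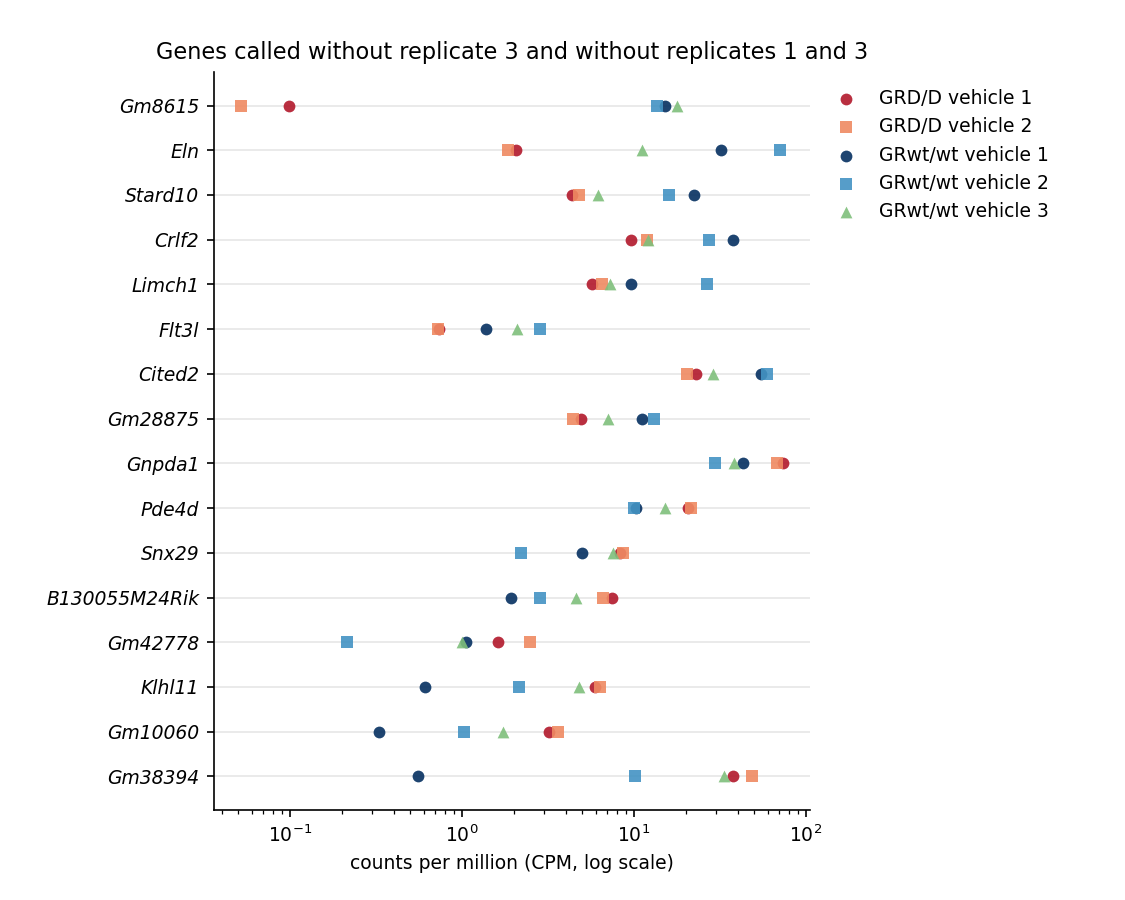
CPM of 16 of these genes in the 5 vehicle libraries, on a log scale, with 1 point per library and genes ordered by LFC without replicate 3. GRD/D points lie left of all GRwt/wt points for the upper 8 genes and right of them for the lower 8, and GRwt/wt replicate 3 is often the nearest control.

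Eln encodes elastin, the core protein of elastic fibers, and was the most reduced protein-coding gene of the 17. Its level was 2.07 and 1.86 CPM in GRD/D and 32.1, 70.2 and 11.1 CPM in GRwt/wt. The controls themselves spanned a wide range, and all were above both mutant libraries. The LFC was -4.26 ± 1.03 with all libraries (adjusted p = 0.272, edgeR), -4.66 ± 1.01 without replicate 3 (adjusted p = 0.0219) and -5.18 ± 1.08 without both (adjusted p = 0.0364). Under Dex, Eln was at 3.43, 19.5 and 3.31 CPM in GRD/D and at 19.9, 132 and 85.8 CPM in GRwt/wt.

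Stard10, a phospholipid transfer protein, was at 4.38 and 4.76 CPM in GRD/D and at 22.2, 15.9 and 6.21 CPM in GRwt/wt. GRwt/wt replicate 3 came close to the mutant level, and the LFC was -1.69 ± 0.38 with all libraries (adjusted p = 0.246, edgeR) and -2.01 ± 0.27 without replicate 3 (adjusted p = 0.00399). Cited2 encodes a transcriptional coregulator that binds CBP and p300, coactivators which GR also uses. It measured 23.01 and 20.3 CPM in GRD/D and 54.9, 59.1 and 28.7 CPM in GRwt/wt, with an LFC of -1.14 ± 0.26 (adjusted p = 0.246, edgeR) and -1.35 ± 0.22 without replicate 3 (adjusted p = 0.00978). Both genes were also called lower in GRD/D under Dex, where 40 of 15748 genes were called (0.254%), at LFC of -1.98 and -1.32.

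Further lower protein-coding genes included Crlf2, a subunit of the receptor for the cytokine TSLP, Flt3l, a cytokine of hematopoietic progenitors, and Limch1, an actin-binding activator of non-muscle myosin. Crlf2 was at 9.66 and 11.8 CPM in GRD/D and at 37.8, 27.4 and 12.1 CPM in GRwt/wt. Flt3l was low throughout, at 0.739 and 0.724 CPM against 1.38, 2.85 and 2.08 CPM. Limch1 was at 5.67 and 6.52 CPM against 9.65, 26.6 and 7.25 CPM. In Crlf2 and Limch1 the gap between the nearest mutant and control libraries was small, and the LFC with all libraries was -1.26, -1.52 and -1.25 for the 3 genes in this order, with adjusted p of 0.304, 0.246 and 0.342 (edgeR). Gm28875, a non-coding gene, was lower as well, at 4.93 and 4.40 CPM against 11.1, 13.0 and 7.07 CPM.

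Among the higher genes, Pde4d, a phosphodiesterase that degrades cAMP, measured 20.6 and 21.4 CPM in GRD/D and 10.3, 9.99 and 15.1 CPM in GRwt/wt. Its LFC was 0.83 ± 0.19 (adjusted p = 0.246, edgeR), 1.10 ± 0.17 without replicate 3 (adjusted p = 0.00978) and 1.05 ± 0.22 without both (adjusted p = 0.0364). Under Dex the LFC was 0.38 and did not pass. Snx29, a sorting nexin, was at 8.28 and 8.64 CPM against 4.96, 2.20 and 7.56 CPM. Klhl11, a Kelch-like adaptor of cullin ubiquitin ligases, was at 5.96 and 6.36 CPM against 0.607, 2.15 and 4.76 CPM. In both, GRwt/wt replicate 3 lay nearest to the mutant values.

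Gm38394 varied widely among the controls themselves, at 0.552, 10.1 and 33.3 CPM against 37.6 and 48.4 CPM in GRD/D, and it overlaps Zc3h11a and Zbed6 on the same strand, so its reads may belong to these. Gm10060, Gm42778 and the long non-coding B130055M24Rik completed the higher genes, with LFC of 1.72, 1.43 and 1.17 with all libraries and adjusted p of 0.246, 0.332 and 0.246 (edgeR). The difference of the genotype effect between Dex and vehicle was tested as an interaction. It was called for 0 genes (edgeR, lowest adjusted p = 0.157), while 1119 genes had an unadjusted p below 0.05.

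Of the 284 genes called higher without replicate 3, 258 (90.8%) had the same sign in GRD/D against GRwt/wt under Dex, and of the 92 called lower 89 (96.7%), where 49.4% and 50.6% of all genes had that sign. These shares are descriptive. The library most like GRD/D vehicle replicate 1 was GRD/D Dex replicate 1, for vehicle replicate 2 it was Dex replicate 3, and for GRwt/wt vehicle replicate 2 it was GRwt/wt Dex replicate 3 (0.990 to 0.995), and whether vehicle and Dex libraries share cultures was not tested. Lyz2 was also higher in the GRD/D Dex libraries (195 to 1149 CPM) than in the GRwt/wt Dex libraries (6.68 to 63.6 CPM).

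GR binds palindromes of the half-site AGAACA, and promoter sequence of the 35 genes was searched for it because the mutation lies in the DNA-binding domain. RefSeq promoters (GRCm38.p6) were found for 15 of the 35. The 250 bases upstream of a start held AGAACA, on either strand, in 2 of these 15 genes (13.3%), against 18.2% of 27025 genes in the table. The full palindrome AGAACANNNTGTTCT was in 0 of the 15 and in 0.0111% of all. Both promoters with a half-site belonged to genes lower in GRD/D and are shown with the match in capitals, AGAACA itself in Stard10 and its reverse complement in Limch1. The Stard10 promoter lies at chr7:101316836-101317085 (plus strand) and the Limch1 promoter, 1 of 3 listed for that gene, at chr5:66968178-66968427 (plus strand). The match starts 24 bases before the start site in Stard10 and 45 bases before it in Limch1.
Stard10: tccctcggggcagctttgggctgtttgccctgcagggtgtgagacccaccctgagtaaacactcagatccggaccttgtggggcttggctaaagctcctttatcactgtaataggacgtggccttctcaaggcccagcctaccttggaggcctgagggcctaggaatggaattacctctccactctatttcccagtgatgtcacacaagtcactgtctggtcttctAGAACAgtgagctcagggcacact
Limch1: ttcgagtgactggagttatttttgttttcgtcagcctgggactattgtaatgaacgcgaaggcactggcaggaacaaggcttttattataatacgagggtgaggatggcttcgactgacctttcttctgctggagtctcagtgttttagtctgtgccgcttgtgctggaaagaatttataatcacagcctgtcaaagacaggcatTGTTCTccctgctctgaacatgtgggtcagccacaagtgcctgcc
The share of promoters with a half-site was thus near that of all genes, and a match does not show binding.

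Gene lists were described by their counts and medians, beside median LFC over all genes of -0.06, -0.03, 0.02 and -0.03 in the 4 fits, in the order given above. None held Gm8615. Classical glucocorticoid-induced genes lay on both sides of 0 in vehicle. Of 20 genes, 8 had a positive and 12 a negative LFC, and the median was -0.26, -0.06, -0.15 and -0.01 in the 4 fits. Fkbp5, a chaperone that dampens ligand binding by GR, and Tsc22d3, the anti-inflammatory leucine zipper protein GILZ, were chosen after their values were seen. Fkbp5 was at 32.6 and 31.1 CPM in GRD/D and at 28.9, 19.3 and 44.9 CPM in GRwt/wt. The groups overlapped, with an LFC of 0.04 ± 0.27 in vehicle, and the LFC under Dex was -1.77 (adjusted p = 0.0038, edgeR). Tsc22d3 had an LFC of -0.12 ± 0.30 in vehicle and -1.86 under Dex (adjusted p = 0.0051). For neither gene did the difference between vehicle and Dex pass, since the interaction given above was called for 0 genes. Ddit4, an inhibitor of mTORC1, was below all controls, at 85.4 and 79.6 CPM against 112, 118 and 94.4 CPM. Its LFC was -0.39 ± 0.14 (adjusted p = 0.34), and -0.089 with a correction for GC content and length. The clock gene Per1 overlapped between groups. Angptl4, an inhibitor of lipoprotein lipase, stood out on the high side in the list, chosen after its values were seen, at 138 and 153 CPM against 77.3, 53.9 and 49.7 CPM, with an LFC of 1.27 ± 0.60 (adjusted p = 0.404).

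The receptor's partners, in a list of 26 with chaperones, steroid enzymes and coregulators, had a median LFC of 0.22, 0.03, 0.36 and 0.00 in the 4 fits. The coactivator Ep300 was at 74.4 and 81.0 CPM in GRD/D and at 29.7, 54.8 and 70.2 CPM in GRwt/wt, and its relative Crebbp at 50.4 and 54.7 CPM against 20.2, 40.6 and 52.1 CPM. In both genes GRwt/wt replicate 1 was lowest, and the LFC of 0.59 and 0.48 did not pass (adjusted p = 0.342 and 0.413, edgeR). With a correction for GC content and length the LFC was 0.28 and 0.16.

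Inflammatory targets of NF-kB, which ligand-bound GR lowers, also lay on both sides of 0. Of 25 tested genes 15 had a positive LFC, with medians of 0.21, 0.03, 0.32 and 0.10 in the 4 fits. The ubiquitin ligase Birc3 was at 17.2 and 17.3 CPM against 7.72, 10.8 and 16.9 CPM. The chemokine Cxcl10 reversed with the libraries used, with an LFC of 0.21 with all, -0.34 without replicate 1 and 3.55 without replicate 3, and the interferon-stimulated Oas2 likewise, from -0.20 to 2.25 without replicate 3. Mmp12, the macrophage elastase, was at 119 and 58.8 CPM in GRD/D, at 2.04 and 2.74 CPM in GRwt/wt replicates 1 and 2, and at 204 CPM in replicate 3. Its LFC was 5.26 without replicate 3 (adjusted p = 0.0219), 0.36 with all libraries and 4.99 without both (adjusted p = 0.121), and its level followed that of the macrophage markers across the 5 libraries. Over 28 interferon-stimulated genes the median turned with replicate 3, at -0.14, -0.12, 0.28 and 0.06 in the 4 fits, and 18 of 28 were above 0 without it where 11 of 28 were with all libraries. Over 21 AP-1 genes it was 0.10, 0.20, 0.09 and 0.22. In this list the immediate early factor Klf6 was at 251 and 256 CPM against 25.2, 147 and 249 CPM, and was called in 1 of the 4 fits, without replicate 3 (LFC 1.59, adjusted p = 0.0492, edgeR).

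Extracellular matrix genes had a positive LFC in vehicle more often than not, and the median of the collagens moved with 1 control library. Of 27 collagens 21 had a positive LFC (median 0.20, 0.24, 0.33 and 0.59 in the 4 fits), but the median was 0.038 without GRwt/wt replicate 2, the library lowest for this list, and 0.13 under Dex. Only 2 were above every control library, and Col8a2 was below every one at 6.45 and 5.38 CPM against 29.0, 16.8 and 13.1 CPM. Of 35 other matrix genes 21 had a positive LFC and 11 were above every control library (31.4% where all genes gave 11.1%). The median stayed between 0.23 and 0.34 over the 4 fits, was 0.28 without GRwt/wt replicate 2, and had the opposite sign under Dex (-0.12). Tnc, the adhesion-modulating glycoprotein tenascin-C, was at 2422 and 2654 CPM in GRD/D and at 983, 991 and 1720.4 CPM in GRwt/wt. The mutant values exceeded the highest control, with an LFC of 1.04 ± 0.27 (adjusted p = 0.299, edgeR) and 1.41 ± 0.27 without replicate 3 (adjusted p = 0.0147), but 1.33 without both did not pass (adjusted p = 0.0713). Nid1, the basement membrane linker nidogen, chosen after its values were seen, was at 1507 and 1484 CPM against 927, 955 and 945 CPM. Its controls were tight and its LFC between 0.62 and 0.71 in the 4 fits did not pass. Matrix metalloproteinases and their inhibitors, 23 genes, had a median LFC of 0.09, 0.14, 0.14 and 0.41 in the 4 fits, but of -0.0048 without GRwt/wt replicate 2 and -0.16 under Dex. Contractile genes had a negative LFC in 20 of 27, with medians of -0.45, -0.13, -0.53 and -0.27 in the 4 fits and 0.01 under Dex. GRwt/wt replicate 1 was high for this list (0.64 above the mean of the 5 libraries on the log2 scale, against -0.13 to 0.00 in the other controls), as it was for the smooth muscle and pericyte markers (993 CPM against 238 to 423 CPM), whose part in the difference was not tested. The smooth muscle gene Smtn was at 51.1 and 52.4 CPM against 92.5, 62.6 and 56.4 CPM.

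Many genes of biosynthesis lay below every control library. In the list of cholesterol and fatty acid synthesis, 28 of 34 genes had a negative LFC and 18 (52.9%) were below every control library, where all genes gave 12.1%. The median LFC was -0.46 with all libraries, -0.43 without replicate 1, -0.57 without replicate 3, -0.65 without both and -0.15 under Dex. Pmvk, a kinase of the mevalonate pathway, was at 17.9 and 13.4 CPM against 48.8, 35.8 and 21.6 CPM, with an LFC of -1.17 ± 0.38 (adjusted p = 0.332, edgeR) and -1.38 without replicate 3 (adjusted p = 0.036), and -1.21 without both did not pass (adjusted p = 0.168). Mvk, the preceding enzyme, chosen after its values were seen, was at 40.1 and 35.7 CPM against 109, 77.9 and 50.8 CPM. Acss2, which makes acetyl-CoA from acetate, overlapped, since GRwt/wt replicate 3 was at 16.3 CPM between the mutant values of 18.5 and 15.1 CPM. It was called without replicate 3 (LFC -1.29, adjusted p = 0.0428, edgeR) and not without both (adjusted p = 0.152).

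The amino acid stress genes of ATF4, a transcription factor of serine and amino acid synthesis, had a negative LFC in 26 of 30 and were below every control in 18 (60.0%). The median LFC was -0.32 with all libraries, between -0.21 and -0.32 in the other fits, and 0.19 under Dex. Phgdh, the first enzyme of serine synthesis, was at 104 and 98.4 CPM against 222, 140 and 111 CPM. Psat1, the next enzyme and chosen after its values were seen, was at 174 and 152 CPM against 257, 226 and 227 CPM, with an LFC of -0.54 ± 0.21 (adjusted p = 0.353, edgeR). Cytosolic ribosomal protein genes had a negative LFC in 79 of 82, and 63 (76.8%) were below every control. Their median LFC was -0.48 with all libraries, -0.24 without replicate 1, -0.57 without replicate 3, -0.35 without both and 0.04 under Dex. Rplp0, of the ribosomal stalk, was at 859 and 800 CPM against 2953, 1667 and 902 CPM, and was called without replicate 3 (LFC -1.43, adjusted p = 0.0289, edgeR) but not without both (adjusted p = 0.186). Subunits of oxidative phosphorylation had a negative LFC in 43 of 45, with medians of -0.41, -0.21, -0.53 and -0.40 in the 4 fits and -0.03 under Dex. Here 17 (37.8%) were below every control, among them Atp5g1 at 56.2 and 48.4 CPM against 117, 79.3 and 58.3 CPM. In these 4 lists GRwt/wt replicate 1 was the highest of the 5 libraries. A correction for GC content and length was among the alternatives, under all of which the 4 medians stayed between -0.65 and -0.17. With it the LFC was -1.14 for Atp5g1, -0.26 for Phgdh and -0.76 for Pmvk, against -0.69, -0.64 and -1.17 without it. What part the GC-dependent deviation of replicate 1 had was not tested further. Genes with many processed pseudogenes, as ribosomal protein genes have, are uncertain under unique mapping.

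**Figure D4:**
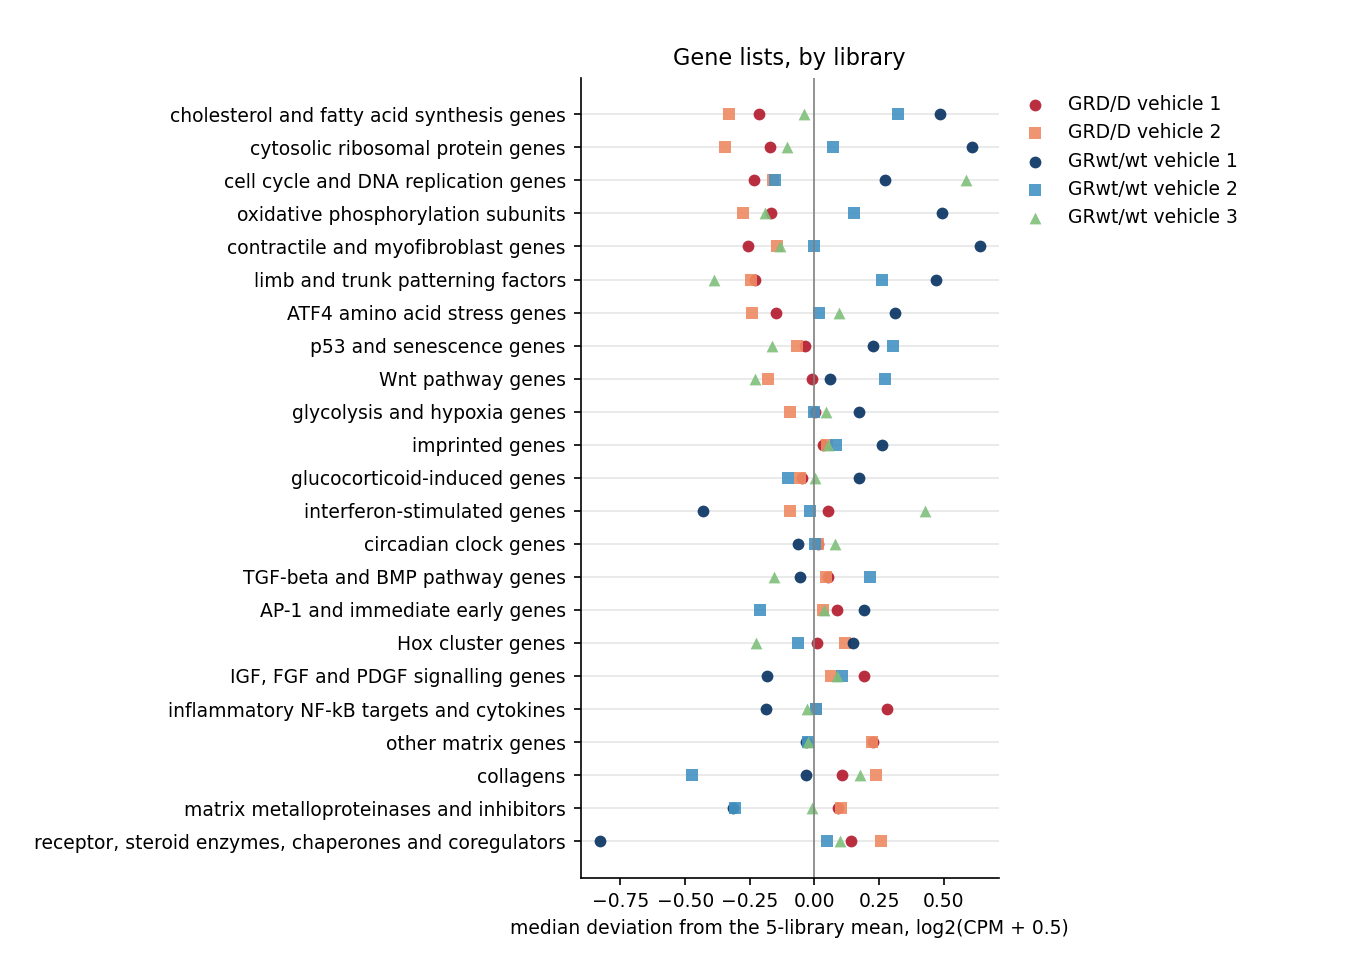
Level of each gene list in each vehicle library, as the median over its genes of the deviation from the 5-library mean in log2(CPM + 0.5), with 1 point per library. Both GRD/D libraries are the lowest for the cholesterol, ribosomal protein and ATF4 lists, and GRwt/wt replicate 1 is often at an extreme.

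Cell cycle genes had a negative LFC in 37 of 42. Their medians were -0.49 and -0.50 with all libraries and without replicate 1, -0.29 without replicate 3 and -0.06 without both. Under Dex the median had the opposite sign (0.12). GRwt/wt replicate 3 had the highest level of this list, so the difference rested on replicates 1 and 3. The cyclin Ccnd1 was at 174 and 213 CPM in GRD/D against 387, 344 and 145 CPM. Of the p53 targets, the proapoptotic Bbc3 was at 29.2 and 30.6 CPM against 66.3, 49.1 and 31.98 CPM, and Bax was at 88.3 and 87.0 CPM against 164, 129 and 88.2 CPM. In both, replicate 3 was near the mutants. Their LFC of -0.72 and -0.53 with all libraries became -0.25 and -0.058 with a correction for GC content and length. The list median over 26 genes was -0.09, -0.09, -0.24 and -0.29 in the 4 fits.

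Developmental regulators showed LFC of large size and a wide spread among the controls. Limb and trunk patterning factors had a negative LFC in 34 of 48, with a median of -0.82 with all libraries, -0.43 without replicate 1, -1.14 without replicate 3, -0.53 without both and -0.74 under Dex. Over the members with at least 10 counts in every library, a filter that also removes genes that fell to low counts, the median was -0.16. Msx1, a homeobox factor of limb mesenchyme, was at 0.443 and 1.91 CPM in GRD/D, at 7.23 and 27.1 CPM in GRwt/wt replicates 1 and 2, and at 1.40 CPM in replicate 3. The morphogen Bmp4 was at 3.89 and 5.95 CPM against 40.4, 81.3 and 6.43 CPM, and Wnt2, a ligand of the Wnt pathway, at 2.66 and 3.67 CPM against 12.6, 9.72 and 2.49 CPM. For these genes replicate 3 was near the mutant level and replicates 1 and 2 were above it. Their LFC of -3.33, -3.12 and -1.38 with all libraries did not pass (adjusted p = 0.337, 0.332 and 0.342, edgeR), and -3.83, -3.59 and -1.77 without replicate 3 did (adjusted p = 0.0402, 0.0362 and 0.0219). Without both replicates none of the 3 passed (adjusted p = 0.0541, 0.0692 and 0.0857). Smad6, an inhibitor of BMP signaling, was at 6.75 and 5.69 CPM against 15.998, 20.1 and 5.48 CPM and was also called lower without replicate 3 (LFC -1.49, adjusted p = 0.0304, edgeR) but not without both (adjusted p = 0.065). The cartilage markers Col2a1 and Acan were likewise high in GRwt/wt replicates 1 and 2 and low in replicate 3 and GRD/D, and their part in these differences was not tested. Rspo1, a secreted enhancer of Wnt signaling, was at 0.246 and 0.362 CPM against 7.61, 1.99 and 0.453 CPM. Nkd2, an inhibitor of Wnt signaling, went the other way, at 31.2 and 51.0 CPM against 10.2, 15.5 and 41.4 CPM. Without replicate 3 Rspo1 was called lower (LFC -3.89, adjusted p = 0.0239, edgeR) and Nkd2 higher (LFC 1.72, adjusted p = 0.0363), and neither was called without both (adjusted p = 0.155 and 0.22). The Wnt pathway had a median LFC of -0.32, -0.02, -0.23 and -0.51 over 33 genes in the 4 fits, and 0.094 under the same filter. The TGF-beta and BMP pathway had -0.16, 0.02, -0.06 and -0.10, also over 33 genes. Hox cluster genes turned with replicate 1, with -0.16, 0.16, -0.31 and 0.09.

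Growth factor genes were mixed. In the IGF, FGF and PDGF list 19 of 32 had a positive LFC and the median was 0.09, 0.04, 0.17 and 0.06 in the 4 fits. With a correction for GC content and length the sign of this median turned (-0.16). Igf2r, the imprinted receptor that clears IGF2, was at 1045 and 1240.0 CPM in GRD/D against 829, 499.9 and 809 CPM, above every control. Its LFC was 0.68 ± 0.21 with all libraries (adjusted p = 0.332, edgeR), 1.17 without both replicates and 0.32 with a correction for GC content and length. Fgf1 was at 1.77 and 1.45 CPM against 0, 0.268 and 0.0453 CPM. Its LFC was 3.88 ± 0.90 with all libraries (adjusted p = 0.246, edgeR) and 3.55 without replicate 3 (adjusted p = 0.0476), but 2.53 without both did not pass (adjusted p = 0.253). Dlk1, an imprinted inhibitor of adipocyte differentiation, was lower in GRD/D, at 85.3 and 65.0 CPM against 718, 191 and 124 CPM, with an LFC of -2.19 with all libraries, -1.06 without replicate 1, -2.54 without replicate 3 (adjusted p = 0.0379, edgeR) and -1.37 without both. Over the 22 imprinted genes tested the median was -0.17, 0.05, -0.20 and -0.13, and -0.49 with a correction for GC content and length. Of the 22 clock genes 11 were above 0, with medians of 0.02, 0.08, 0.19 and 0.07. Over 32 glycolysis and hypoxia genes the median was -0.09, 0.01, -0.05 and -0.03.

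**Figure D5:**
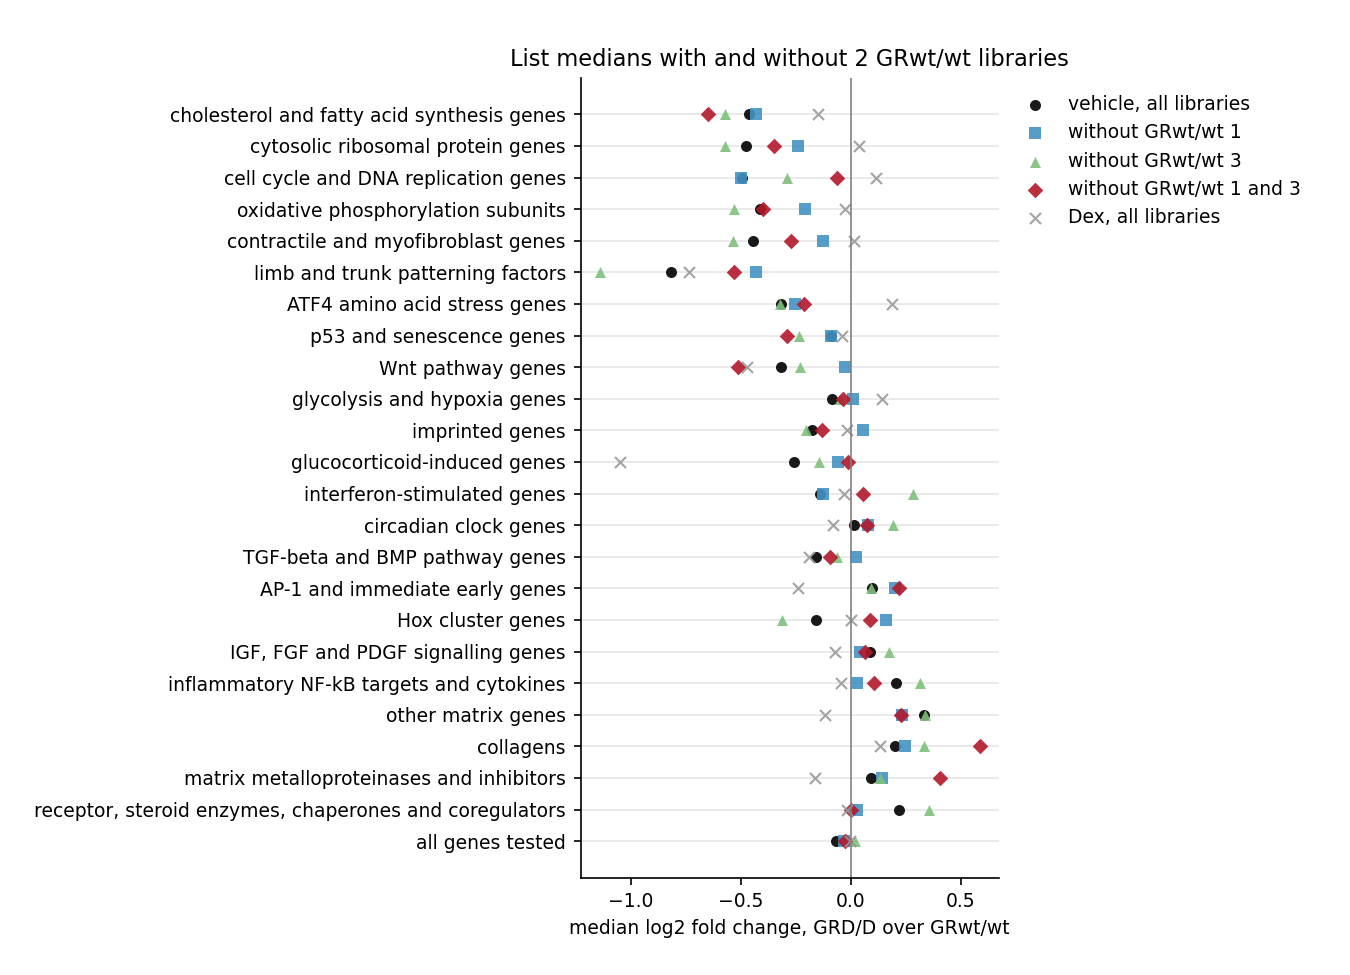
Median LFC of each list over its genes under the 4 vehicle fits and, as crosses, under Dex, with the vertical line at 0. The medians of several lists spread widely over the 4 fits, as for limb and trunk patterning factors (-0.43 to -1.14), and the glucocorticoid-induced list is at -0.26 to -0.01 in vehicle and at -1.05 under Dex.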

How the data were processed

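Per the labels and the study's methods, the authors mapped TruSeq reads to mm10 with HISAT2 2.1.0, kept unique reads and assigned them to genes using featureCounts 2.0.0, and the deposited table holds these raw counts. The annotation release and strandedness were not given in the sources used here, so overlapping genes and pseudogenes are uncertain. Symbols and coordinates came from GENCODE M21 (GRCm38), in which 55227 of 55487 identifiers occur.

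Counts of all 23 libraries were fitted with edgeR 4.0.16 in R 4.3.3, with 1 mean per group, TMM scaling, filterByExpr and a prior count of 0.125. Contrasts were GRD/D against GRwt/wt in vehicle and under Dex. All adjusted p-values are two-sided and from edgeR unless another tool is named. They rest on a spread estimated jointly over all groups of a fit, not on that of the compared groups alone. The median SD per gene was 0.469 in GRwt/wt vehicle and 0.099 in GRD/D vehicle. Vehicle and Dex libraries counted as independent, although they may share cultures. Without replicates 1 and 3 no spread among GRwt/wt vehicle libraries entered. No pair of libraries of a group agreed within counting noise (mean chi-square per gene 10.96 for the GRD/D pair). Alternatives were DESeq2 1.42.0, limma 3.58.1 voom with sample weights, other scalings, filters and sample sets, a correction for GC content and length, and leaving out libraries. DESeq2 and voom without replicate 3, DESeq2 without both replicates, and the Dex comparison without vehicle libraries, were added after seeing the data.

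The 23 gene lists, 13 marker lists and the comparison itself were chosen with earlier results of these data known. The genes named were Nr3c1, every gene called with all libraries, and up to 12 protein-coding and 3 other genes per direction called both without replicate 3 and without both replicates, with the same sign and no overlap among the 5 libraries and a mean of at least 1 CPM. Per list they were up to 3 called members, otherwise the 2 with the smallest p without replicate 3. Of these, genes of the lists with no call in any fit are described in part. Other names are marked as chosen after their values were seen. For 1 gene that this rule named, the result is not reported here.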

Additional observations from a re-analysis of the deposited data

How the results depend on the processing

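The count of 1 called gene in vehicle was also 1 with RLE scaling, upper-quartile scaling, no count filter, only vehicle libraries, a prior count of 2, and with the replicate number as a block. It was 2 by adjusted p alone, 2 with limma voom and sample weights, 3 with the GC and length correction and 30 with DESeq2. It was 0 with at least 10 counts in every library, a filter that removes Gm8615 before testing (at most 2 counts in a GRD/D library), and also when just the GRwt/wt and GRD/D libraries or the 5 vehicle libraries were fitted (edgeR, 1499, 808 and 197 genes at an unadjusted p below 0.05). It ranged from 0 to 376 when each vehicle library was left out, with 0 without either GRD/D library and 376 without GRwt/wt replicate 3, and was 56 without GRwt/wt replicates 1 and 3. DESeq2 called 821 without replicate 3 and 267 without both, and voom called 1 without replicate 3. Under Dex the 40 calls became 21 with upper-quartile scaling, 4 when just these genotypes were fitted, 279 with DESeq2, 399 with voom, 81 with the GC and length correction, 45 with the replicate block, and 5 to 29 when each Dex library was left out (lowest without GRD/D Dex replicate 3). Leaving out vehicle libraries, which lie outside that contrast but share its estimate of the spread, was added after seeing the data. It gave 123, 85 and 306 calls under Dex without GRwt/wt vehicle replicates 1, 2 and 3, 20 without either GRD/D vehicle library, and 487 without GRwt/wt vehicle replicates 1 and 3. The block was not used as the main fit because a number shared by GRD/D and GRwt/wt libraries does not mark the same mouse, and in vehicle these deviated together only weakly (correlations of 0.031 and 0.227).

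Of the single genes, Gm8615 kept its direction but not its call in the fits of just these genotypes and of the 5 vehicle libraries, and without either GRD/D library (adjusted p = 0.267, 0.319, 0.0983 and 0.148, edgeR). The direction reversed for Cxcl10 without GRD/D replicate 2 (-1.19) or GRwt/wt replicate 1 (-0.34) or 2 (-0.30), against 3.55 without GRwt/wt replicate 3, and for Mmp12 without GRD/D replicate 1 (-0.24) or GRwt/wt replicate 1 (-0.23) or 2 (-0.21), against 5.26 without replicate 3. For Oas2 it reversed with the replicate block (0.078), with voom (0.90), without GRD/D replicate 2 (0.12), without GRwt/wt replicate 3 (2.25) or both (2.21), against a lowest value of -0.69 without GRwt/wt replicate 2, with DESeq2 without replicate 3 (2.39) or without both (2.38), and with voom without replicate 3 (1.90). It also reversed for Pfkm with voom (0.017) or without GRwt/wt replicate 1 (0.16, against -0.58 without replicate 3), and for Vldlr with the GC and length correction (-0.042). That correction gave the smallest difference of all alternatives for several other named genes. For Bax, Bbc3, Phgdh and Ddit4 the LFC was -0.058, -0.25, -0.26 and -0.089, against -0.53, -0.72, -0.64 and -0.39 without it. For Ep300, Crebbp, Igf2r and Crlf2 it was 0.28, 0.16, 0.32 and -0.71, against 0.59, 0.48, 0.68 and -1.26. Atp5g1 went the other way (-1.14, against -0.69). The causes were not tested.

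Of the list medians under the alternatives, 94 moved by more than the spread between libraries and 389 did not. With the GC and length correction the IGF, FGF and PDGF median turned to -0.16. The imprinted median was -0.49 with that correction and 0.058 with voom. The limb and trunk patterning median ranged from -1.15 to -0.16, the Wnt median from -0.51 to 0.094 and the interferon-stimulated median from -0.32 to 0.38, while the cholesterol list stayed between -0.65 and -0.39 and the ATF4 list between -0.43 and -0.17. When 1 of the other 3 vehicle libraries was left out, the sign of a median turned without GRwt/wt replicate 2 for the AP-1 (-0.014), metalloproteinase (-0.0048), Hox (0.047) and clock (-0.125) lists, without GRD/D replicate 1 for the inflammatory list (-0.086), and without GRD/D replicate 2 for the glycolysis (0.012) and interferon-stimulated (0.0067) lists.

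Precision was limited by 2 GRD/D libraries and by 3 GRwt/wt libraries that differ widely among themselves.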
